A study of Mus musculus with 7 samples.

Results

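Open chromatin at the genes of the peptide hormones somatostatin (Sst) and cortistatin (Cort) was examined in alpha, beta, and delta cells of the mouse pancreatic islet. All peaks that touch the gene body of Sst or Cort, or the 100 kb on either side, were taken from the peak lists of 7 ATAC-Seq libraries, in which the Tn5 transposase cuts and tags DNA where chromatin is accessible. This gave 195 of 1190565 peaks, 91 at Sst and 104 at Cort. Sst (ENSMUSG00000004366.4) lies at chr16:23889573-23890958 of mm10 (GRCm38) and Cort (ENSMUSG00000028971.4) at chr4:149125034-149126763, both on the minus strand. The cells were FACS-sorted from healthy triple-transgenic mice pooled by sex, which carried mIns1-H2b-mCherry and Rosa-LSL-YFP together with Sst-Cre or Gcg-Cre. There were 2 alpha, 3 beta, and 2 delta libraries, with both sexes in each cell type. In these mice the Ins1 promoter of the mCherry transgene marks beta cells, and Cre switches on YFP in delta cells (Sst-Cre) or alpha cells (Gcg-Cre). The labels give neither the site of the Sst-Cre allele nor which cross each beta library came from. A signal at Sst that comes from carrying Sst-Cre and one that comes from the delta cell type cannot be told apart.

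Somatostatin is the hormone of the islet delta cell. It acts on neighbouring alpha and beta cells through Gi-coupled receptors (Sstr1 to Sstr5) and holds back the release of glucagon and insulin. Cortistatin is a closely related peptide that binds the same receptors and is known mainly from cortical interneurons. Transcription of Sst is known to respond to cyclic AMP through a cAMP response element (CRE) bound by CREB, and in islets to homeodomain proteins such as Pdx1 with partners of the PBX family.

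The sequences below show what lies under the Sst and Cort starts and under the peaks that both delta libraries had beside Sst. All are given 5′ to 3′ on the strand of the gene (minus strand), with matches to the letters searched for in capitals. The first pair holds the elements of the Sst promoter, at chr16:23890874-23890903 and chr16:23890939-23890968, the next is the 250 bases before the Cort start at chr4:149126764-149127013, and the last 3 lie in the parts common to the peaks of both delta libraries (the whole part for the first, and at most 250 bases around the summits for the others) 5.59 kb and 2.73 kb downstream and 5.84 kb upstream of the Sst start, at chr16:23885311-23885422, chr16:23888032-23888281, and chr16:23896719-23896968.
Sst promoter, CRE: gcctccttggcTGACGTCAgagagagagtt
Sst promoter, PBX-type element: cctcacttctgTGATTGATtttgcgaggct
Cort promoter: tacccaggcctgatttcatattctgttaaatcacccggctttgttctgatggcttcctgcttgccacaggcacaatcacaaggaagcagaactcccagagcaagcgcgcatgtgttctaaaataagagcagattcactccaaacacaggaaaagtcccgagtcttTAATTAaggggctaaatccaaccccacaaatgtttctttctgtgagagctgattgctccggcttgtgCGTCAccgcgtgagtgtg
Sst, 5.59 kb downstream: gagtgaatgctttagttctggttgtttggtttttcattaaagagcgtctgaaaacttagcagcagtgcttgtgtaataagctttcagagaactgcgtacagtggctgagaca
Sst, 2.73 kb downstream: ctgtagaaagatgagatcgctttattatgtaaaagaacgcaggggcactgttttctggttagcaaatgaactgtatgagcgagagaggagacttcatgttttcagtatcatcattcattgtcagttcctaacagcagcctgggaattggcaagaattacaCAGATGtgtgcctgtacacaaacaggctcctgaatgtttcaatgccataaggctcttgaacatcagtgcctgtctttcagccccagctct
Sst, 5.84 kb upstream: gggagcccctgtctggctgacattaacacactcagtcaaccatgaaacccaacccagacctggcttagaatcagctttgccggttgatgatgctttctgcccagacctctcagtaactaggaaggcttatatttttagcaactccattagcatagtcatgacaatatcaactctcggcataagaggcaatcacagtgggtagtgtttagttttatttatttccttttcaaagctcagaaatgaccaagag

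The letters searched, on both strands, were TGACGTCA (the full CRE), TGACG (its core, which the full site contains on both strands), TAATTA (homeodomain), TGATTGAC and, differing in its last letter, TGATTGAT (PBX), TGTTTAC (forkhead), the E-boxes CAGATG and, as a second form, CAGCTG, and the TATA box as CTATAAA and, contained in it, TATAAA. In the 250 bases before the RefSeq start of Sst, the full CRE stood 41 to 48 bases and TGATTGAT 106 to 113 bases upstream, and none of the other letters matched apart from TGACG inside the CRE. The full CRE was present in 1.55% and TGATTGAT in 0.670% of 32851 RefSeq promoter windows (GRCm38.p6) of this length. The Cort window held no full CRE. It had a single TGACG 14 to 18 bases upstream (17.8% of promoters have one) and TAATTA 80 to 85 bases upstream (4.84% of promoters). Among the 3 flanking stretches, the one 2.73 kb downstream held CAGATG, a string found in 21.8% of windows of 250 bases centred on the 133698 regions of at least 2 libraries, and the other 2 held none of the letters. The stretch 5.59 kb downstream is 112 bases long. The window of 250 bases centred on its region held 1 TGACG, as did 11.3% of such windows. The RefSeq start of Sst (23890844) lies 114 bases inside the GENCODE gene, so that both elements fall within the 5′ UTR of the GENCODE model. Distances are given from the GENCODE 5′ end unless stated otherwise.

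The libraries were not equally deep in peaks. The lists held 131151 and 111961 peaks in alpha 1 and alpha 2, 518503, 91089, and 103935 in beta 1, 2, and 3, and 158066 and 75860 in delta 1 and delta 2. Beta 1 stood apart, since 73.0% of its peaks shared 1 value of -log10 p (2.26) and 5.0% reached a -log10 q of 2, against 29.8% to 54.9% in the other lists. The file names of the 3 beta libraries also carry another cell type than their labels, alpha for beta 1 and delta for beta 2 and 3, and the labels were used. Per the study, beta cells were sorted from both crosses, beside alpha or delta cells. An exchange of labels was not tested here. By the lane in the file names, alpha 1, alpha 2, and beta 1 were on lane 6 and the other 4 libraries on lane 7. The effects of lane and of cell type therefore cannot be told apart between alpha and delta cells, and the single comparison of delta cells within a lane is with beta 2 and 3. The lists hold peaks and no reads, and the read totals that the study gives were not used here, so no limit of detection was set for a missing peak. The -log10 q of each peak, made from the reads of its own library, is given as the measure of strength.

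At the Sst start, both delta libraries and beta 1 had a peak, and alpha 1, alpha 2, beta 2, and beta 3 had none. The delta 1 peak spanned 426 bp with its summit at 23890821, a 2.91-fold enrichment, and a -log10 q of 0.951. The delta 2 peak spanned 481 bp with its summit at 23890865, a 2.90-fold enrichment, and a -log10 q of 0.966. Both were thus broad but weak peaks, ranked by -log10 p at percentiles 17.1 and 14.4 of their own lists, where a percentile is the share of a library's peaks with a lower value and ties count 0.5. By -log10 q the percentiles were 36.4 and 14.4, and by fold enrichment 57.1 and 14.3. The beta 1 peak spanned 296 bp with its summit at 23890745, a 3.57-fold enrichment, and a -log10 q of 2.34 (percentile 95.5). It was the strongest of the 3 by -log10 q and the one that passed a -log10 q of 2. The peaks differed in what they covered, as both delta peaks contained the CRE and TGATTGAT printed above, whereas the beta 1 peak ended 14 bp short of the CRE, on the side of the coding sequence. The delta summits lay 67 and 23 bp from the centre of the CRE and the beta 1 summit 143 bp from it.

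A peak at the start in both delta libraries and in no alpha library was uncommon, as 119 of 21911 protein-coding genes had one (0.543%). Peaks at the start in both delta libraries were found for 54.1% of genes. The full pattern of Sst, open in delta 1, delta 2, and beta 1 only, was shared by 33 other genes (0.151%). The 5 with percentiles closest to those of Sst over the 7 libraries were Adra2a, an adrenergic receptor, with a mean difference of 7.0 percentile points, Celsr1, an atypical cadherin, with 7.18, Speer1 with 8.61, and the olfactory receptor gene Olfr785 and the protocadherin gene Pcdhgb1 with 10.6 each. In beta 1, Adra2a and Celsr1 stood at percentiles 95.0 and 97.2, beside 95.5 for Sst. Speer1, Olfr785, and Pcdhgb1 stood at 48.1 there, the most frequent value of that list, so they resemble Sst less closely.

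Both delta libraries had further peaks on either side of Sst that the alpha libraries lacked. The region 2.73 kb downstream of the start, which is past the 3′ end of the gene (chr16:23887997-23888455), had a -log10 q of 2.39 in delta 1 and 2.8 in delta 2. Beta 1 had a 200 bp peak in it with a -log10 q of 0.0774, and the other 4 libraries had none. It was the single region of the Sst window at which both delta libraries, and no other, reached a -log10 q of 2. This was 1 of 7 regions of at least 2 libraries at that threshold, where 4.68% of all 51202 such regions have the pattern. The region 5.84 kb upstream (chr16:23896584-23897011) had a -log10 q of 1.03 in delta 1 and 2.24 in delta 2, and no other library had a peak there. The region 5.59 kb downstream (chr16:23885223-23885510) had 2.23 and 1.54, again with no peak in any other library. All 3 are intergenic, with Sst as the nearest protein-coding start. The starts of the duct genes Spp1 and Cftr were also strongest in the delta libraries (values are given with the marker genes), and the part of duct cells in these peaks was not tested. Delta cells were sorted on YFP that Sst-Cre switches on, and the purity of the sort was not tested here.

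**Figure D1:**
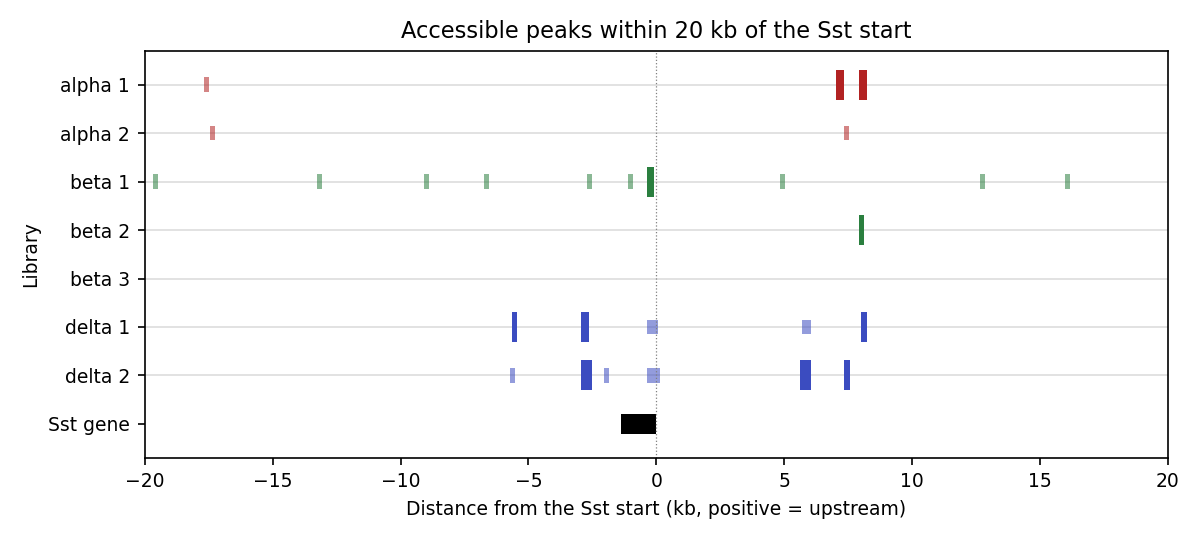
Peaks of each library (rows) by distance from the Sst start in kb (x axis, positive upstream), with the narrowest peaks drawn wider than they are. Tall full bars have a rounded -log10 q of at least 2 and short pale bars less, and the black bar is the Sst gene. The tall delta 1 bar at 8.07 kb upstream rounds to 2.0 and was counted as below 2. Both delta libraries have peaks at the start and at 5.59 kb and 2.73 kb downstream and 5.84 kb upstream, and beta 3 has no peak in the 20 kb shown on each side.

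Further upstream, 7 to 8 kb from the Sst start, accessibility was shared with alpha cells. The region at 7.30 kb (chr16:23898000-23898520) had a -log10 q of 2.08 in alpha 1, 1.02 in alpha 2, and 5.93 in delta 2. The region at 8.07 kb (chr16:23898881-23899184) had 4.34 in alpha 1, 2.90 in beta 2, and 2.0 in delta 1. Each delta library thus had a peak in 1 of these neighbours and not in the other. Seen from the start of Sst, the nearest peak was 7.04 kb away in alpha 1, 7.33 kb in alpha 2, 7.92 kb in beta 2, and 47.3 kb in beta 3, while in delta 1 and delta 2 it covered the start and in beta 1 it lay 0.087 kb from it.

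Over the whole Sst window, peaks merged into 53 regions, of which 38 were seen in a single library (24 in beta 1) and 15 in at least 2. Of these 15, 8 had a peak in both delta libraries (53.3%, against 33.6% of all 133698 regions of at least 2 libraries). In both delta and no alpha library there were 4 (26.7%, against 5.13%), and in both delta and no other library 2 (13.3%, against 2.06%). Without beta 1, the last count was 4 of 12, against 4.71% of 90335 regions. A peak in both alpha and no delta library was found once, 556 bp from the start of Rtp2, a gene of the receptor transporter family, 40.7 kb upstream of Sst, with a -log10 q of 0.278 and 0.182 (5.38% of all regions have this pattern).

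Some regions of the Sst window were open in every library. Those 48.1 kb downstream (chr16:23842374-23843291) and 91.7 kb upstream (chr16:23982292-23982980, an intron of Bcl6) were open in all 7 libraries, as were 13.3% of all regions of at least 2 libraries. At 48.1 kb downstream, the -log10 q was 4.68 and 10.6 in alpha 1 and 2, 2.79, 1.71, and 4.65 in beta 1, 2, and 3, and 17.9 and 12.7 in delta 1 and 2. The 2 delta values were the highest of the 7, with no test made, and a -log10 q also depends on the depth of its library. At 91.7 kb upstream, the values were 7.76 and 8.29 in alpha, 5.18, 0.816, and 6.62 in beta, and 9.70 and 5.63 in delta cells, where the cell types overlapped. The region 57.1 kb downstream (chr16:23833524-23834176) had 8.0 and 4.32 in delta, 3.21 in beta 1, 5.19 in beta 3, and 1.02 in alpha 2, with no peak in alpha 1 or beta 2. The start of Bcl6, a transcriptional repressor, was open in 6 libraries, all except beta 2, with a -log10 q from 2.0 in delta 1 to 9.50 in beta 3. The gene model Gm37419 shares that peak, and the pseudogene Gm49516 had no peak at its start. By the lowest percentile over the libraries that had them, the regions at 8.07 kb (70.2), at Bcl6 (50.0), and at 5.84 kb (46.2) came first.

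**Figure D2:**
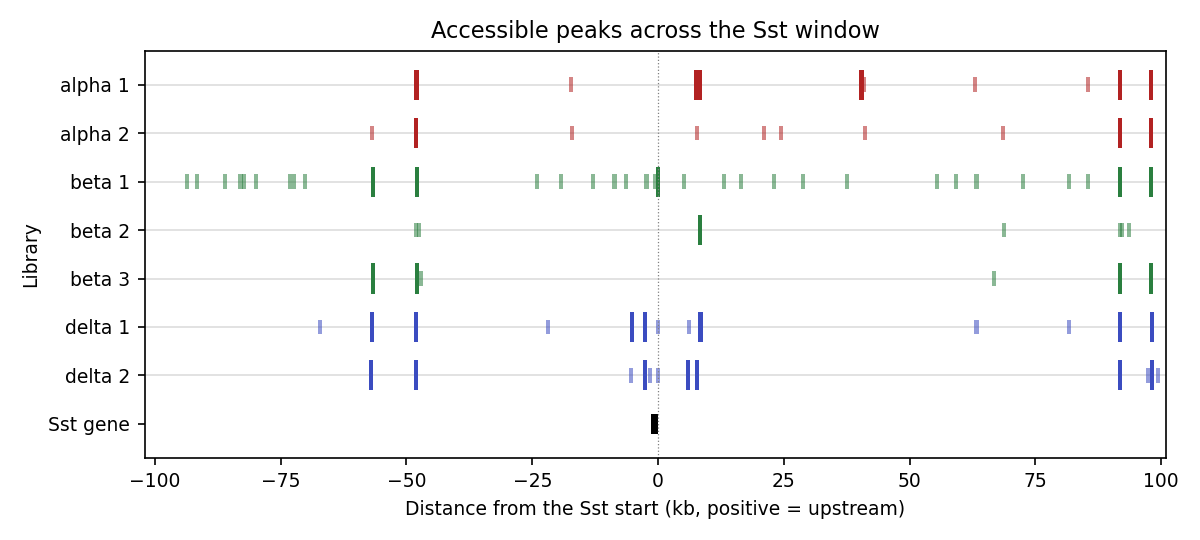
The same display over the Sst gene body and 100 kb on each side (x axis, distance from the start in kb, positive upstream), one row per library, with tall full bars for a rounded -log10 q of at least 2. The tall delta 1 bars at 8.07 kb upstream and at the Bcl6 start round to 2.0 and were counted as below 2. The columns of bars at 48.1 kb downstream and 91.7 kb upstream run through all 7 libraries, and the many short bars of beta 1 are its peaks of low -log10 q.

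The number of peaks at the locus was compared between cell types relative to the length of each list. The Sst window held 10 peaks in both alpha libraries, 33, 7, and 6 in beta 1, 2, and 3, and 13 and 12 in delta 1 and 2. Per 10000 peaks of the list, this was 0.762 and 0.893 in alpha, 0.636, 0.768, and 0.577 in beta, and 0.822 and 1.58 in delta cells. Delta 2 was the highest of the 7 libraries, whereas delta 1 lay between the alpha libraries. The mean was 1.20 ± 0.537 (SD, n = 2) in delta cells and 0.728 ± 0.124 (SD, n = 5) in the other libraries, a difference of 0.475 that was not significant (two-sided exact permutation test over 21 assignments, p = 0.0952, adjusted over both loci 0.190). The smallest p of this design is 0.0476. Without delta 2, the difference was 0.0949. Within lane 7, delta exceeded beta 2 and 3 by 0.529 (two-sided exact permutation p = 0.333, the smallest that 6 assignments allow), where the file names of both beta lists carry delta. With 10 kb on each side in place of 100 kb, both delta libraries (0.316 and 0.791) lay above the other 5 (0 to 0.152). The difference was 0.460 (two-sided exact permutation p = 0.0476). This distance was chosen after the data were seen, so its p restates them and is no separate test. Over all protein-coding genes, the median difference for the 100 kb window was 0.0220, and that of Sst was above the difference of 93.7% of genes. Within single libraries, by peaks per 10000 and per 100 kb of window, Sst stood above 48.1% of genes in delta 1 and 81.4% in delta 2. In the other 5 it stood above 16.9% (beta 3) to 47.6% (beta 2).

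**Figure D3:**
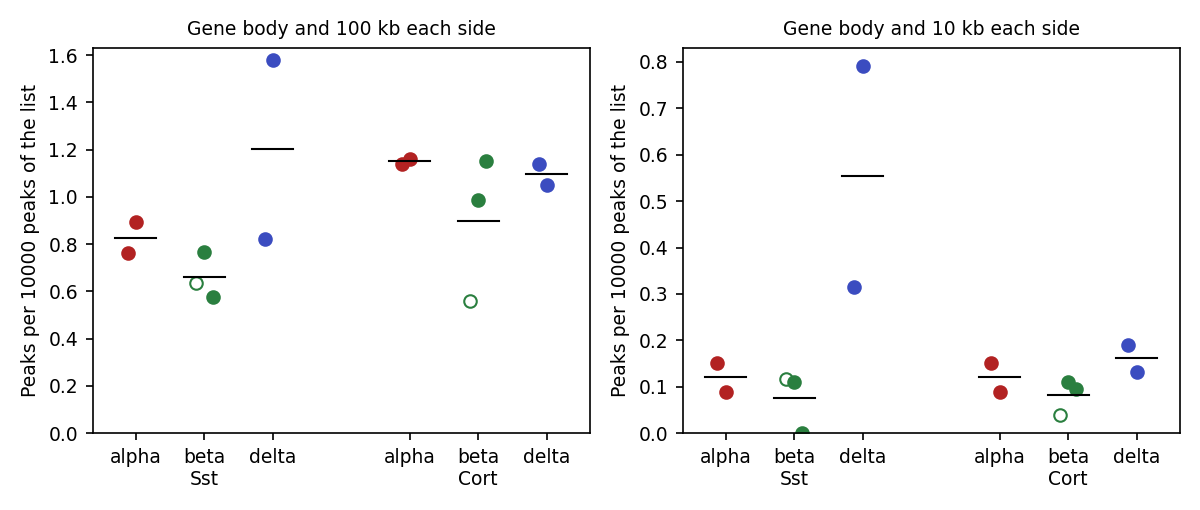
Peaks at the Sst and Cort loci per 10000 peaks of each list (y axis) in alpha, beta, and delta libraries (points, with beta 1 open, and lines at the group means), for 100 kb (left) and 10 kb (right) on each side of the gene body. In the 10 kb panel the delta points of Sst, at 0.316 and 0.791, lie above all other Sst points, and the Cort points lie between 0.0386 and 0.190.

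Cort had no delta peak at its start. Beta 1 was the single library with a peak within 1 kb, a 200 bp peak in the Cort intron (chr4:149125902-149126101) with a 1.80-fold enrichment and a -log10 q of 0.0774, which are the most frequent values of that list. The same call pattern, open in beta 1 alone, was found for 1812 other protein-coding genes (8.27%), of which 1440 had the same percentile, so no gene was named as most like Cort. For 17.3% of protein-coding genes no library had a peak at the start. In the other 6 libraries the peak nearest to the Cort start was 5.35 to 5.65 kb away, in the neighbouring gene Cenps.

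That nearest region, 5.80 kb upstream (chr4:149132110-149133019, over an exon and introns of Cenps, which encodes a centromere protein), was open in every library except beta 1. Its -log10 q was 1.92 and 3.02 in alpha 1 and 2, 1.82 and 2.57 in beta 2 and 3, and 2.67 and 5.92 in delta 1 and 2. Delta 2 was the highest and delta 1 lay between the alpha libraries, so the groups overlapped. Of the 62 merged regions of the Cort window, 48 were seen in 1 library (20 in beta 1) and 14 in at least 2. Of the 14, 6 had a peak in both delta libraries (42.9%, against 33.6% of all regions of at least 2 libraries), 2 in both delta and no alpha library (14.3%, against 5.13%), and none in both delta and no other library (against 2.06%). At 69.7 kb downstream (chr4:149056924-149057287, an intron of Pex14) the -log10 q was 7.85 in delta 1, 2.91 in delta 2, and 1.43 in beta 3, and the other 4 libraries had no peak. At 95.0 kb downstream, also in a Pex14 intron, it was 1.91 in delta 1, 0.795 in delta 2, and 0.0774 in beta 1. At 74.4 kb downstream, in the same gene, it was 0.951 in delta 1, 4.79 in delta 2, and 1.02 in alpha 2. Peaks in both alpha and no delta library were found once, at 64.2 kb downstream in Pex14 (1.13 and 2.03).

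Several strong peaks of the Cort window lay at the starts of its neighbours and others away from any start, such as a peak 91.4 kb upstream in alpha 1 alone (-log10 q of 8.56). The start of Pgd, an enzyme of the pentose phosphate pathway, 40.0 kb upstream, was open in all 7 libraries, with a -log10 q from 4.43 in beta 1 to 39.6 in alpha 2 and from 19.9 to 24.9 in delta cells. It was the single region of this window open in all 7, and its lowest percentile was 94.6. The start of Dffa, the inhibitor of a DNA-fragmenting nuclease, was open in all libraries except delta 2, and that of Pex14, a peroxisomal import protein, in alpha 1, alpha 2, beta 3, and delta 1. These had the next highest lowest percentiles (61.8 and 70.7). The start of Cenps, 10.8 kb upstream, was open in all libraries except beta 2, with 8.24 and 4.38 in alpha, 0.0774 and 1.43 in beta 1 and 3, and 2.88 and 0.795 in delta cells. Kif1b, a kinesin whose body reaches into the window, was open at its start in all 7. The pseudogene Gm9506 had a peak at its start in beta 1, and Rpsa-ps12 had none.

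**Figure D4:**
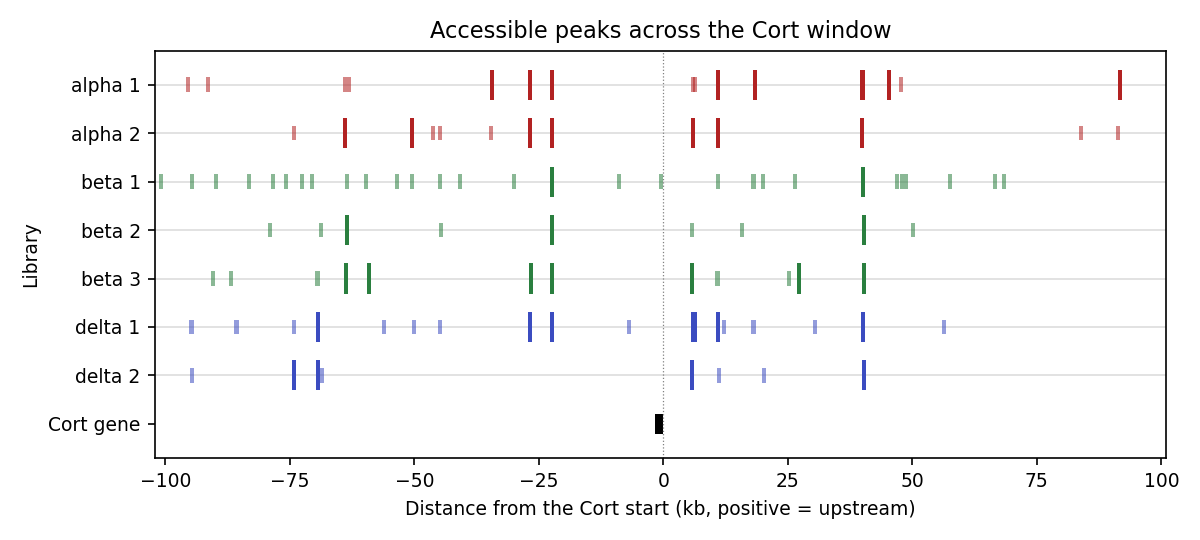
Peaks over the Cort gene body and 100 kb on each side (x axis, distance from the Cort start in kb, positive upstream), one row per library, with tall full bars for a -log10 q of at least 2 and the Cort gene in black. The column at 40.0 kb upstream is the Pgd start, open in all 7 libraries, and the one bar at the Cort gene is the weak peak of beta 1.

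Peak numbers at Cort overlapped between the cell types. The window held 15 and 13 peaks in alpha, 29, 9, and 12 in beta, and 18 and 8 in delta cells. Per 10000 peaks of the list, this was 1.14 and 1.16 in alpha, 0.559, 0.988, and 1.15 in beta, and 1.14 and 1.05 in delta cells, so the delta libraries lay within the range of the others. The difference between delta and the other libraries was 0.0953 (two-sided exact permutation test over 21 assignments, p = 0.762, adjusted 0.762). Its sign turned under other settings, with -0.0152 without beta 1. With 10 kb on each side, the distance chosen after the data were seen, the difference at Cort was 0.0635 (two-sided exact permutation p = 0.190).

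Compared with the loci of the other islet hormones over the same window, regions open in both delta and no alpha library numbered 4 of 15 at Sst and 2 of 14 at Cort. They numbered 1 of 17 at Gcg, 0 of 5 at Ins1, 0 of 12 at Ins2, 1 of 12 at Iapp, 1 of 19 at Ppy, and 1 of 20 at Pyy, where the last 2 windows overlap. The Gcg start was open in alpha 1 and 2 (percentiles 94.1 and 91.6) and in delta 2 (47.1), and in no beta library. The Ins1 start was open in all 7 libraries, and these mice carry a second Ins1 promoter in the mCherry transgene. Each of Sst, Gcg, and Ins1 thus had a peak at its start in at least 1 library of another cell type. The 5′ end used here is that of the longest GENCODE model, which matters for Ins2 (open in beta 3 alone).

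The genes through which somatostatin is made and acts were examined at their starts. Of the receptor list (Sstr1 to Sstr5 and the ghrelin receptor Ghsr), 4 of 6 were open in both delta libraries, near the 54.1% of all protein-coding genes. Sstr2 was open in all 7 libraries and Sstr1 in all except beta 1. Sstr3 was open in both delta libraries, alpha 2, beta 2, and beta 3. Sstr4, by contrast, was open in both alpha and all 3 beta libraries and in neither delta library, and Sstr5 in beta 1 and beta 3. The Sstr4 peaks of alpha 1, alpha 2, and beta 1 were weak, with a -log10 q of 0.278, 1.02, and 0.0774. Those of beta 2 and beta 3 had 2.42 and 5.23. Ghsr, through which ghrelin is known to act on delta cells, was open in both alpha and both delta libraries and in beta 1. Of the processing enzymes, the prohormone convertases Pcsk1 and Pcsk2, the carboxypeptidase Cpe, the amidating enzyme Pam, and the chaperone Scg5 were open in all 7 libraries, and Furin in none. All 5 therefore met the pattern of 41.5% of protein-coding genes.

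Among 20 genes of transcription factors known from the Sst promoter or from delta cells, 18 were open in both delta libraries (54.1% of all protein-coding genes are) and 13 in all 7 (41.5%), and none was open in both delta and no alpha library (0.543%), so the last count is near that of all genes. Those open in all 7 included the cyclic AMP responsive factors Creb1, Crem, and Atf2, the coactivator Crtc2, and Pbx3 and Pknox1, partners of homeodomain proteins. Pdx1 was open in all libraries except beta 2. Hhex, a repressor known as a delta cell factor, was open in both delta libraries (percentiles 91.3 and 69.4), both alpha libraries (65.6 and 72.7), and, at the most frequent value of its list, beta 1 (48.1). Pbx2 was open in the alpha libraries alone, and Pax4 in none.

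**Figure D5:**
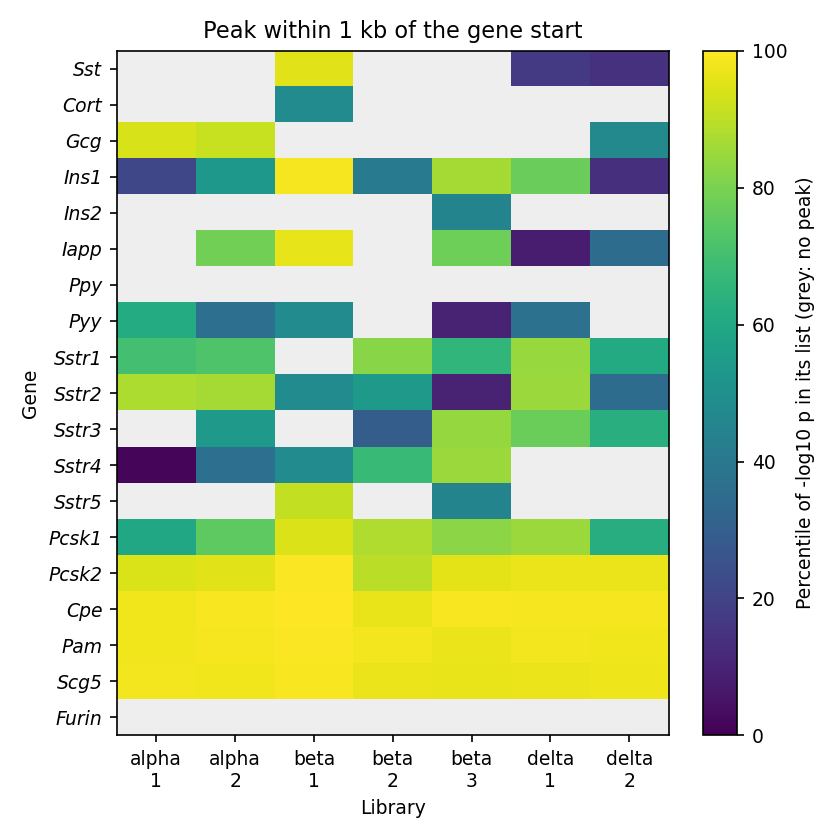
Percentile by -log10 p, within its own list, of the strongest peak within 1 kb of each gene start (colour, 0 to 100, grey where there is no peak), for Sst, Cort, other hormone genes, somatostatin receptors, and processing enzymes (rows) in 7 libraries (columns). Sst is coloured in beta 1, delta 1, and delta 2, Cort in beta 1 alone, and Pcsk2, Cpe, Pam, and Scg5 are high throughout.

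Marker genes were checked in the same way. Of 10 delta cell markers, 7 were open at their start in each of delta 1 and delta 2, 6 and 7 in alpha 1 and 2, and 7, 1, and 5 in beta 1, 2, and 3. Sst was the one marker of the list open in both delta and no alpha library. Of 10 alpha markers, 9 were open in each alpha library and 6, 6, and 8 in beta 1, 2, and 3. In delta 1 and 2 they numbered 8 and 10. Of 11 beta markers, 7 and 8 were open in alpha 1 and 2, and 7, 5, and 7 in beta 1, 2, and 3. In delta 1 and 2 they numbered 8 and 7, so the cell types overlapped for the beta list. These counts stand beside 60.5% and 62.0% of all protein-coding genes with a peak at their start in alpha 1 and 2, 69.7%, 48.9%, and 56.7% in beta 1, 2, and 3, and 62.3% and 56.3% in delta 1 and 2. Markers of other cells of the pancreas were examined as well. Of 9 acinar genes, 1 was open in each delta library (Rbpjl), 1 and 3 in alpha, and 4, 0, and 0 in beta 1, 2, and 3, with Cpa1 and Cela2a among those open in none. Of 5 duct genes, 3 were open in each delta library, 2 in each alpha library, and 1 in each beta library. Spp1, the gene of osteopontin, had a -log10 q of 2.98 and 5.65 in delta 1 and 2, 1.13 in alpha 1, and no peak in the other libraries. Cftr, a chloride channel, had 5.32 and 4.47 in delta 1 and 2 and 0.278 to 1.82 in the other 5. Sox9 had a peak in delta 2 alone (1.93), and Krt19 in none. These 2 duct genes, Spp1 and Cftr, were thus strongest in the same libraries as the regions around Sst. Of 5 endothelial and 5 immune genes, 1 of each was open in delta 1 (Kdr and Csf1r) and none in delta 2. Of the endothelial genes, 1 was also open in alpha 2 and 1 in beta 1, and of the immune genes 2 in beta 1, Csf1r among them. In sorted cells of this kind, a peak carried by fewer cells and a peak less open in each cell cannot be told apart. The part of other cell types in the Sst peaks was not tested.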

How the data were processed

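ATAC-Seq peaks of 7 libraries were used as deposited. Per the labels and the study's methods, the authors used Trimmomatic on the single-end reads, Bowtie 2 for alignment to mm10, and Picard for duplicates, left out blacklisted regions, and ran MACS2 on each library separately. The versions and the MACS2 threshold are not given in the sources used here, and the lowest -log10 p was 2.01 in every list. The deposited -log10 p and -log10 q, the fold enrichment (a ratio to the local background), the score, and the summit position are the authors' MACS2 values.

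Intervals listed with several summits were counted once, at the summit of highest -log10 p. Regions are peaks of any library joined where they share 1 bp or more, and they were annotated with GENCODE vM21. A peak at a gene start lies within 1 kb of the GENCODE 5′ end. All peaks lay within the GRCm38.p6 chromosomes, and promoters came from RefSeq. Libraries were compared by exact permutation tests of peaks per 10000 peaks of the list, two-sided, with Benjamini-Hochberg adjustment over the 2 loci. The labels call the replicates biological. The alternatives were other peak thresholds and windows, base pairs covered, fewer libraries, and permutation within sex or replicate number. Named were the members, genes of their windows, regions with a peak in both delta or in all 7 libraries, the 3 regions of highest lowest percentile, the 5 genes of most similar pattern, and lists of markers, receptors, enzymes, and transcription factors. Single values of a few list genes are not reported here. The members and lists were chosen with earlier results of these data known. Python 3.11.15 with numpy 2.4.6, pandas 2.3.3, pysam 0.24.0, and matplotlib 3.10.9 was used, and merging was tested on simulated data against bedtools 2.31.1.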

Additional observations from a re-analysis of the deposited data

How the results depend on the processing

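The difference in Sst peaks per 10000 between delta and the other libraries kept its sign under every alternative run. Its p of 0.0952 fell to 0.0476 (exact permutation) for base pairs covered (0.694 per 10000 covered) and the 200 kb window (0.490). The p rose to 0.571 (exact permutation) where the -log10 q was 2 or more (0.360) and to 0.238 with 50000 peaks per list (0.520). With 50 kb it rose to 0.143 (0.322). Against alpha alone the difference was 0.374 (exact permutation p = 0.667). The smallest p that its 6 assignments allow is 0.333, so that p cannot be set beside the others. The 10 kb window (0.460, exact permutation p = 0.0476) was chosen after the data were seen, so its p is no separate test. Leaving out 1 library gave a difference of 0.0949 (without delta 2) to 0.854 (without delta 1) in the 100 kb window. At Cort the difference turned to -0.0785 where the -log10 q was 2 or more, to -0.1000 with 50000 peaks per list, to -0.0493 in base pairs covered, and to -0.0557 against alpha alone, and it ranged from -0.0152 (without beta 1) to 0.137 (without delta 2). The study took the cell types from the same animals, but which libraries share a pool is not given in the sources used here, and the replicate numbers join libraries of different sex. Permuted within sex, the Sst difference was 0.468 (exact permutation p = 0.0833, the smallest that 12 assignments allow). With the number as a replicate block the differences were 0.437 at Sst (exact permutation p = 0.111, the smallest that 9 assignments allow) and 0.134 at Cort (p = 0.778). A p of 0.05 is out of reach in either form, so these values say nothing of stability. Deviations of same-numbered libraries from their cell type means, over all gene windows, correlated at -0.103 to 0.621. Where a cell type has 2 libraries, their deviations mirror each other, so these values cannot decide whether the numbers are pairs. The numbers were not taken as pairs.

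Regions with a peak in both delta libraries, 8 at Sst and 6 at Cort, numbered 4 and 3 where the -log10 q was 2 or more, 5 and 3 with 50000 peaks, and 5 and 3 with 50 kb windows. At Cort they were also 12 with 200 kb and 3 when each delta library had to cover at least 0.5 of a region. The Bcl6 start is not among the 4 at Sst, because its delta 1 value, which rounds to 2.0, was counted as below 2. Leaving out 1 library gave 8 to 13 at Sst and 6 to 17 at Cort, where the highest values, without delta 2, count the regions of delta 1 alone. Regions in both delta and no other library, 2 at Sst and 0 at Cort, were 4 and 1 without beta 1 and 1 at each locus at a -log10 q of at least 2 (1 of 7 regions at Sst, against 4.68% of 51202), both additions made after the data were seen. Libraries with a peak at the Sst start fell from 3 to 1 (beta 1) for a -log10 q of 2 or more and to 1 in the top 50000, and at Cort from 1 to 0 under both settings. Leaving out 1 library gave 2 to 3 at Sst and 0 to 1 at Cort. The delta peaks at the Sst start are thus lost at either stricter threshold. The read totals of the libraries were not used here, and the part of depth in the absent peaks was not tested.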
